A study of Mus musculus with 3 samples.

Results

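The genes described here are 10 autophagy genes with a known bearing on Paneth cells, chosen by name: Ulk1, Becn1, Atg5, Atg7, Atg16l1, Map1lc3b, Gabarapl1, Sqstm1, Irgm1 and Lrrk2. All 10 were found among the 35824 genes of the count table, and 9 of them had counts in every library while Lrrk2 had none. The cells were intestinal epithelial cells (IEC) of mouse small intestinal organoids (SIO), which are crypt-derived epithelial structures grown in Matrigel, here from female CD45.1 C57BL/6 mice. The donors were 6 to 8 weeks old by the sample labels, whereas the series' design text gives 6 to 10 weeks. The organoids had been kept for 4 days with type-3 innate lymphoid cells (ILC3) sorted from the small intestine of reporter mice, in medium that held IL-2, IL-7 and IL-15, and were then sorted for RNA-seq. This IEC + ILC3 condition was sequenced in 3 libraries that the labels call biological replicates, named A, B and C; A and B are labelled as part of the final analysis and C as left out of it, with no reason given. Libraries of IEC ONLY were not analysed here, so nothing below is an effect of ILC3. Nothing in the labels says that the 3 cultures came from separate mice, and p-values measure only the spread between these libraries.

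Autophagy encloses cytoplasm in a double membrane that fuses with the lysosome. A kinase complex around ULK1 starts the process, a lipid kinase complex around Beclin 1 marks the membrane, and a conjugation machinery of ATG7, ATG5, ATG12 and ATG16L1 attaches small ubiquitin-like proteins of the ATG8 family to it, where cargo receptors such as p62 bind. Paneth cells, the granule-rich antimicrobial cells of the crypt base, depend on this machinery: mice with reduced Atg16l1, or without Atg5 or Atg7 in the gut epithelium, have misshapen Paneth granules, and loss of Irgm1 or Lrrk2 in mice also disturbs Paneth cells. Variants near human ATG16L1, IRGM and LRRK2 are associated with Crohn's disease.

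The libraries held 17946361 (A), 23142849 (B) and 28913885 (C) counts, and levels are given as CPM, counts scaled to a common library size with TMM, a correction for library composition. The labelled tissue was checked against its markers. Epcam, the epithelial surface protein used in the sort, stood at 1664, 1721 and 1133 CPM, and the summed level of 14 Paneth genes was 16993, 24021 and 24323 CPM, with 0 of the 14 called in C. Defining markers of ILC3 and of stroma were at or near 0: Il22, Il23r, Ncr1 and Cd3e had 0 counts in every library, Ptprc had 1 count in A alone, and 5 of 6 stromal genes were at 0 throughout. Of the 14 genes in the ILC3 and lymphocyte list 6 were at 0 in every library, and 0 were called in C. Library C differed in other epithelial lineages, with 4 of 7 goblet genes and 3 of 3 tested tuft genes called lower. The goblet list was mixed, with 1 log2 fold change above 0 and 6 below. Agr2 was highest in C (445, 367 and 585 CPM) and Spdef about level (22.7, 27.2 and 24.6 CPM). The goblet sum was 2310, 2852 and 1550 CPM in A, B and C, and the tuft sum 22.8, 41.2 and 0 CPM. The part of these cell types in any value of C below was not tested, and in such bulk samples fewer cells of a type and less RNA per cell cannot be told apart.

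Per kilobase of exon, the measure on which different genes can be set side by side, the cargo receptor Sqstm1 stood first of the 10 genes at 94.9 ± 19.99 CPM per kilobase (SD, n = 3), above 94.0% of the genes with at least 10 counts in every library. Map1lc3b (31.2 ± 9.54), Becn1 (30.1 ± 7.48), Atg5 (23.6 ± 2.12) and Gabarapl1 (19.1 ± 3.38) formed a middle group on the same scale. Irgm1 (4.33 ± 0.122), Atg7 (3.88 ± 0.150), Ulk1 (2.98 ± 1.03) and Atg16l1 (2.78 ± 1.21) formed a low one, and Atg16l1 still exceeded 28.4% of those genes. Sqstm1 exceeded Map1lc3b in 3 of 3 libraries, 3.04-fold in the means, and Gabarapl1 exceeded Irgm1 in 3 of 3 libraries, 4.40-fold, each without overlap of the ranges. Irgm1 also exceeded Atg7 in all 3 libraries without overlap, but only 1.12-fold. Within the middle group and between Atg7, Ulk1 and Atg16l1 the ranges of neighbouring genes overlapped, so that their order is not settled. Much of this order rests on the length used. The first 3 places held in the means with the longest protein-coding transcript and with the mean length of such transcripts, but Sqstm1 then exceeded Map1lc3b in only 2 of 3 libraries (1.34-fold and 1.32-fold in the means) and lay below it in C. Gabarapl1 stayed above Irgm1 in 3 of 3 libraries without overlap, 1.89-fold by the longest transcript and 3.49-fold by the mean length. Irgm1 exceeded Atg7 by the longest transcript (1.61-fold) but lay below it in every library by the mean length, at 0.725 times its level. By the longest transcript Atg16l1 moved to place 7, Atg7 to 8 and Ulk1 to 9, and by the mean length Gabarapl1 moved to place 4, Atg5 to 5, Atg7 to 6, Irgm1 to 7, Atg16l1 to 8 and Ulk1 to 9.

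**Figure D1:**
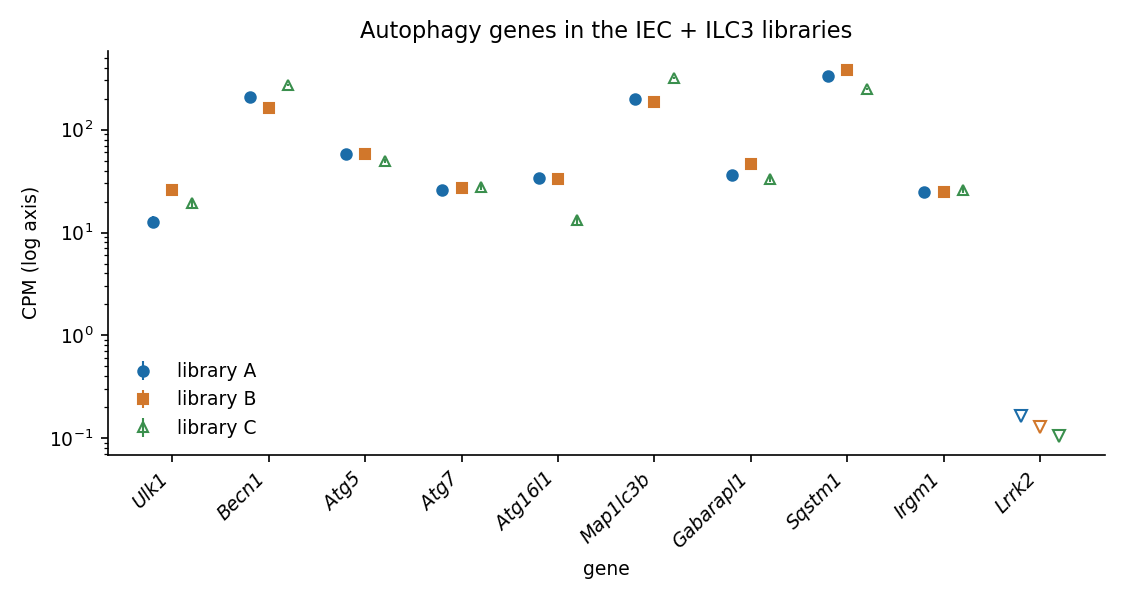
CPM (log axis) of the 10 autophagy genes in libraries A, B and C; the bars, mostly smaller than the points, are exact Poisson intervals at 95% for counting error, and open downward triangles mark the CPM of 3 counts, an upper limit for a gene with 0 counts. Irgm1 and Atg7 lie level across the libraries, Atg16l1 is at 13.2 CPM in C against 33.6 and 33.3 in A and B, and Lrrk2 has no counts.

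The labels allow a single contrast, library C against A and B. Of 13604 genes tested by edgeR's quasi-likelihood test with Benjamini-Hochberg adjustment, 892 (6.56%) passed an adjusted p under 0.1, of which 185 were higher and 707 lower in C, and 0 of the 9 autophagy genes tested were among them. At an unadjusted p under 0.05 this edgeR test gave 2 of the 9 genes (22.2%), Atg16l1 and Map1lc3b, and 3031 of all genes (22.3%), so their share was that of genes at large. C lay above both A and B in 4 genes (Becn1, Map1lc3b, Atg7 and Irgm1), below both in 4 (Atg5, Atg16l1, Gabarapl1 and Sqstm1) and between them in Ulk1. The median log2 fold change of the 9 was 0.01, against -0.10 over all genes tested. Their median absolute log2 difference between B and A was 0.094, against 0.392 over all genes, and their median SD of log2 CPM over the 3 libraries was 0.318, against 0.469. The 9 genes are better covered than many genes in the table, and these medians were not adjusted for level.

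**Figure D2:**
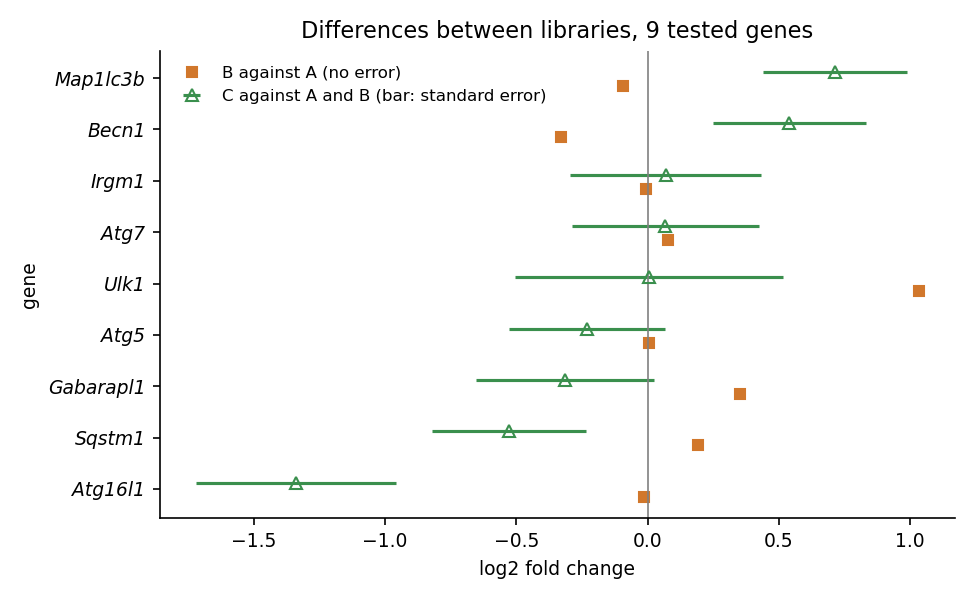
Log2 fold change of the 9 tested autophagy genes in library C against A and B (triangles, with the standard error as bar) and of B against A (squares, single values with no error). Atg16l1 is farthest from 0 at -1.34 while its B to A difference is -0.01; Ulk1 differs more between B and A (1.03) than between C and the pair (0.01).

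Ulk1, the kinase that starts autophagosome formation (ENSMUSG00000029512, chr5:110784488-110810097, minus strand, GRCm38), had 229, 600 and 556 counts, or 12.6, 26.0 and 19.4 CPM in A, B and C. It was the only one of the 9 whose largest gap lay between A and B: B was 2.05 times A, with a counting interval of 1.76 to 2.40, and C lay between them. The log2 fold change of C was accordingly 0.01 ± 0.51 (SE; edgeR's quasi-likelihood test, Benjamini-Hochberg adjusted p = 0.996), and its sign turned with the scaling (-0.011 with plain totals) and with the library left out. Its close relative Ulk2 had 9.33, 8.09 and 2.62 CPM, lowest in C. Of the 5 genes of the ULK complex none was called; the adaptors Atg101 (81.6, 66.0 and 82.2 CPM) and Atg13 (41.8, 53.3 and 38.8 CPM) were its most abundant other subunits per kilobase.

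Becn1 encodes Beclin 1, the scaffold of the class III phosphatidylinositol 3-kinase (ENSMUSG00000035086, chr11:101285952-101302286, minus strand). It had 3727, 3779 and 7696 counts, which gave 206, 164 and 269 CPM. C was the highest library and B the lowest, and C was 1.45 times the mean of A and B, a log2 fold change of 0.54 ± 0.29 (edgeR's quasi-likelihood test, adjusted p = 0.305). B was 0.795 times A (counting interval 0.760 to 0.832), so A and B already differed beyond counting error. The catalytic subunit Pik3c3 stood at 36.4, 31.5 and 40.9 CPM and the accessory subunit Nrbf2 at 26.7, 19.9 and 33.5 CPM, with the same order of libraries as Becn1. In the list of 8 genes of this complex 0 were called, 4 had a log2 fold change above 0 and 4 below, and the regulator Ambra1 was nearest to a call on the low side (13.96, 9.95 and 2.41 CPM; edgeR's quasi-likelihood test, adjusted p = 0.105). Ambra1 was picked out after its value was seen.

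Atg5, the partner that carries ATG12 and binds ATG16L1 (ENSMUSG00000038160, chr10:44268358-44364291, plus strand), had 1054, 1350 and 1424 counts, or 58.2, 58.4 and 49.7 CPM. A and B were level and C lay below both, at 0.852 times their mean (log2 fold change -0.23 ± 0.30; edgeR's quasi-likelihood test, adjusted p = 0.679). Atg7, the E1-like enzyme that activates both ATG12 and the ATG8 proteins (ENSMUSG00000030314, chr6:114643097-114860614, plus strand), had 469, 632 and 800 counts, or 25.9, 27.4 and 27.9 CPM. Its mean was 27.05 ± 1.05 CPM (SD, n = 3), and its SD on the log2 scale was smaller than that of all but 1.33% of the genes tested. The change in C was 0.07 ± 0.35 on the log2 scale (edgeR's quasi-likelihood test, adjusted p = 0.931).

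Atg16l1 places the conjugation complex on the membrane (ENSMUSG00000026289, chr1:87755870-87792428, plus strand). It had 609 counts in A, 770 in B and only 379 in C, the deepest library, which gave 33.6, 33.3 and 13.2 CPM. A and B agreed within counting error (B was 0.991 times A, interval 0.890 to 1.10), and C was at 0.395 times their mean, well outside both. The log2 fold change was -1.34 ± 0.38, with adjusted p = 0.105 by edgeR's quasi-likelihood test, just short of the threshold. The call turned on the processing. It passed with plain totals (adjusted p = 0.0873, where 9.05% of all genes were called), with no filter on low counts (0.0317, 13.8%), with at least 10 counts required in every library (0.0863, 9.17%) and with the Wald test of DESeq2 (0.0748, 12.1%), always as the only gene of the 9. It did not pass with DESeq2 size factors in the edgeR fit (0.113) or once a trend with transcript length (0.125) or GC content (0.133) was removed.

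The other conjugation genes did not share 1 pattern. The paralog Atg16l2 had 12.1, 17.0 and 6.91 CPM, also lowest in C, with a log2 fold change of -1.08 ± 0.54 (edgeR's quasi-likelihood test, adjusted p = 0.278). Atg12, the ubiquitin-like protein that is joined to ATG5, stood at 51.6, 30.99 and 58.3 CPM, lowest in B, and the E2-like enzyme Atg10 at 8.67, 5.28 and 3.63 CPM, highest in A. Over the 6 genes of ATG12 conjugation the median log2 fold change was -0.59, with 2 above and 4 below 0 and 0 called. The genes for membrane supply upstream of them were likewise not called (0 of 10, median -0.05). Among these the lipid scramblase Vmp1 stood at 269, 233 and 334 CPM and the lipid-binding protein Wdr45b at 78.5, 73.3 and 63.2 CPM. Atg9a (61.8, 66.0 and 29.1 CPM), Wipi2 (81.4, 79.8 and 38.2 CPM) and Atg2b (32.9, 38.8 and 14.3 CPM), picked out after their values were seen, had the lowest values in C with adjusted p = 0.101, 0.104 and 0.106 by edgeR's quasi-likelihood test. Their shared role in membrane delivery to the growing autophagosome follows from the list they were picked from. Of its 10 genes, 5 had a log2 fold change above 0 and 5 below. WIPI2 is the protein that recruits ATG16L1 to the growing autophagosome, but a link between the levels of their genes was not tested.

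Map1lc3b encodes LC3B, the ATG8 protein most used to follow autophagosomes (ENSMUSG00000031812, chr8:121590361-121598760, plus strand). It had 3614, 4319 and 9085 counts, or 199, 187 and 317 CPM. A and B lay close together and C above both, at 1.64 times their mean, for a log2 fold change of 0.71 ± 0.27 (edgeR's quasi-likelihood test, adjusted p = 0.182). Gabarapl1, an ATG8 protein of the GABARAP branch (ENSMUSG00000030161, chr6:129533160-129542346, plus strand), had 654, 1064 and 947 counts, or 36.1, 46.0 and 33.0 CPM. B was its highest library, 1.28 times A (counting interval 1.16 to 1.41), and C lay a little below A. Its log2 fold change in C was -0.31 ± 0.34 (edgeR's quasi-likelihood test, adjusted p = 0.612). Neither gene was called, and whether their changes in C differ from each other was not tested.

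Which ATG8 gene ranked first depended on the length used. Gabarap stood at 149, 164 and 154 CPM with a log2 fold change of -0.02, and on the scale of CPM per kilobase it made up 47.0% ± 2.97 (SD, n = 3) of the family and was first in every library. Gabarapl2 (88.0, 66.5 and 86.5 CPM) gave 19.2% ± 2.63 of that sum and Map1lc3a (16.8, 12.9 and 7.64 CPM) gave 5.90% ± 2.29. Gabarapl1 gave 10.6% ± 2.13. Map1lc3b took 14.95%, 14.1% and 22.7% of the family in A, B and C, and C was again apart from a close pair. With the longest coding transcript the share of Map1lc3b was 30.9% ± 6.75 and that of Gabarap 40.7% ± 4.21, and in C Map1lc3b came first, at 38.7% against 36.7%. In CPM without regard to length Map1lc3b took 40.7%, 39.3% and 53.0% of the family in A, B and C, against 30.5%, 34.4% and 25.8% for Gabarap. Of the 10 genes of ATG8 proteins and their processing 0 were called, with 7 log2 fold changes above 0 and 3 below.

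**Figure D3:**
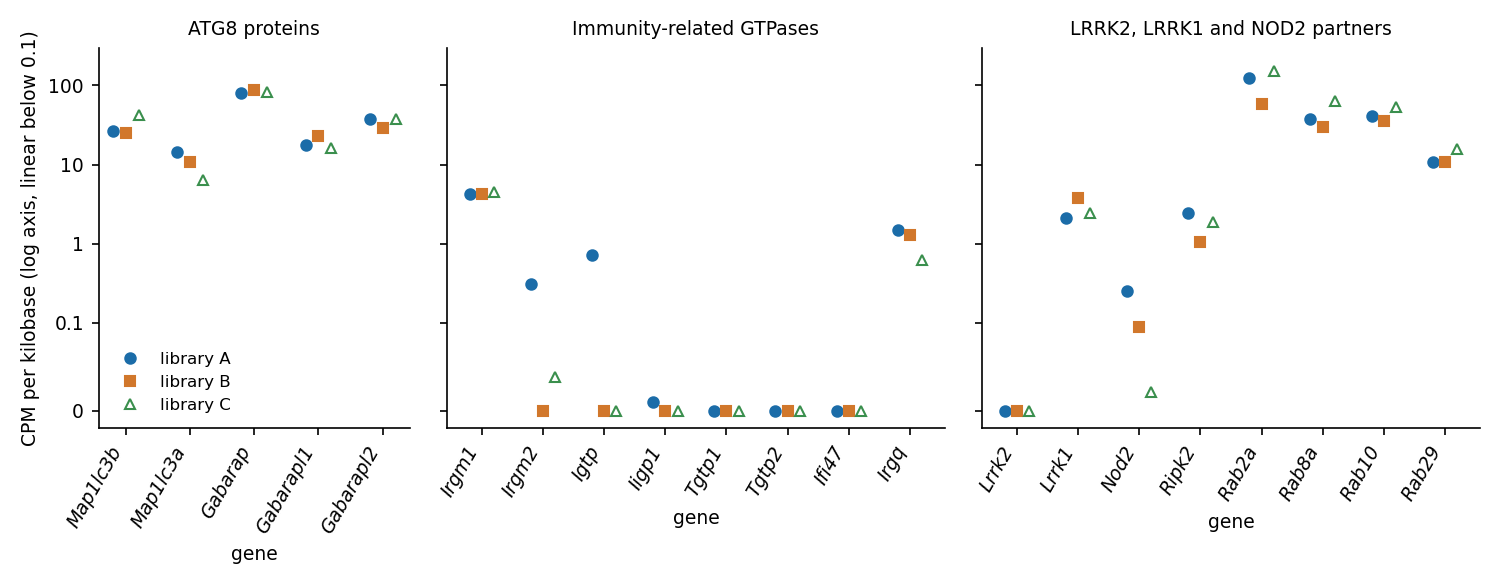
CPM per kilobase (log axis, linear below 0.1) in libraries A, B and C for the ATG8 proteins, the immunity-related GTPases, and LRRK2 with LRRK1, NOD2, RIPK2 and 4 Rab GTPases. Gabarap leads its family on this scale, Irgm1 stands far above the interferon-inducible GTPases, and Lrrk2 is at 0 where Lrrk1 has between 397 and 907 counts.

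Sqstm1 encodes p62, which binds ubiquitinated cargo and LC3 and is itself degraded by autophagy; only its transcript was measured here (ENSMUSG00000015837, chr11:50199366-50210827, minus strand). It had 5999, 8746 and 7054 counts, or 331, 379 and 246 CPM. C was the lowest library, at 0.694 times the mean of A and B, with a log2 fold change of -0.53 ± 0.29 (edgeR's quasi-likelihood test, adjusted p = 0.318). B was 1.14 times A (counting interval 1.11 to 1.18). Among the other cargo receptors Tax1bp1 stood at 474, 399 and 690 CPM and the mitophagy receptor Bnip3 at 116, 68.8 and 90.3 CPM, the first highest in C and the second highest in A. Of the 15 receptors 0 were called, 8 with a log2 fold change above 0 and 7 below (median 0.13). The lysosomal genes at the end of the pathway, led per kilobase by the protease Ctsd (493, 419 and 386 CPM) and the membrane protein Lamp1 (533, 416 and 326 CPM), also had 0 of 13 called. Of these, 6 had a log2 fold change above 0 and 7 below. Vamp8, picked out after its value was seen, had the highest, at 0.91 ± 0.27 (97.4, 90.4 and 177 CPM; edgeR's quasi-likelihood test, adjusted p = 0.114).

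Irgm1 is an immunity-related GTPase that interferon-γ induces in mouse cells and that acts in membrane traffic and autophagy (ENSMUSG00000046879, chr11:48861968-48871683, minus strand). Its SD of log2 CPM was the smallest of the 9 genes with counts. It had 450, 571 and 745 counts, or 24.8, 24.7 and 26.0 CPM, and its mean was 25.2 ± 0.706 CPM (SD, n = 3). Only 0.595% of the genes tested had a smaller SD on the log2 scale. The counting intervals of the 3 libraries overlapped, as they did for Atg7, so which of these genes is steadier is not settled. The log2 fold change in C was 0.07 ± 0.36 (edgeR's quasi-likelihood test, adjusted p = 0.931), and its sign turned when a length (-0.057) or GC (-0.027) trend was removed.

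The rest of the GTPase family stood far lower. Irgm2 had 21, 0 and 4 counts and Igtp, which encodes IRGM3, had 26, 0 and 0, and the annotated spans of these genes overlap on the same strand, so that their reads may be split either way. Iigp1 had 1 count in A and none elsewhere, and Tgtp1, Tgtp2 and Ifi47 had 0 counts in every library. The exception was Irgq, a distant relative, with 9.05, 7.83 and 3.84 CPM. Among interferon genes outside the family the transcription factor Irf1 stood at 122, 143 and 58.1 CPM. It was the 1 gene of 8 tested that was called, lower in C (log2 fold change -1.19 ± 0.31; edgeR's quasi-likelihood test, adjusted p = 0.0875). The targets Gbp2 and Gbp3 had 0 counts throughout. In the same list Ifit3 had 6, 3 and 154 counts and Oas1a 44, 116 and 357, both highest in C. Of the 8 genes tested, 3 had a log2 fold change above 0 and 5 below. Ifit3 and Oas1a were picked out after their values were seen.

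Promoters of Irgm1 and of 3 of these relatives are shown because the genes share interferon-type motifs and stood at such unequal levels. Each line runs from 110 bases before the RefSeq start to 10 bases after it (120 bases, GRCm38.p6, 5′ to 3′ along the gene's strand). For Irgm1 and Irgm2 these starts lie inside the GENCODE gene spans, which begin at chr11:48871683 (minus strand) and chr11:58199618 (plus strand). Motif positions hold for the RefSeq starts only. Capitals mark the core of the interferon-stimulated response element (ISRE), GAAA, any 2 bases and GAAA, and the core of the interferon-γ activated site (GAS), TTC, any 3 bases and GAA. Both strands were searched.
Irgm1 (chr11:48871411-48871530, minus strand): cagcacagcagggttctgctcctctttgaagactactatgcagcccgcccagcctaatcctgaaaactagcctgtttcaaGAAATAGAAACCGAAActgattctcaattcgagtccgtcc
Irgm2 (chr11:58214867-58214986, plus strand): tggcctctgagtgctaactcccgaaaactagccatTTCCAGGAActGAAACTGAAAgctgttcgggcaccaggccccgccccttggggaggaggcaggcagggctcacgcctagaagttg
Igtp (chr11:58199446-58199565, plus strand): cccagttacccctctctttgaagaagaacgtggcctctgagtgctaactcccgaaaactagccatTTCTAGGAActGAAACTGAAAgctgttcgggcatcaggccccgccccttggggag
Tgtp2 (chr11:49064203-49064322, minus strand): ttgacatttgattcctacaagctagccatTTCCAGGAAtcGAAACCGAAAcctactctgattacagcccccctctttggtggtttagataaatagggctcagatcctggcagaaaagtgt

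In the window from 250 bases before to 50 after the RefSeq start, Irgm1 held 2 overlapping ISRE cores and no GAS core. The cores begin 30 and 24 bases before that start. Irgm2, Igtp, Tgtp1 and Tgtp2, 4 of the 6 other GTPases with a promoter sequence, held a GAS core followed by an ISRE core, whereas Ifi47 and Irgq held neither. An ISRE core was found in 3.44% and a GAS core in 8.30% of 32851 mouse promoters of this length. Of the 8 autophagy genes with a promoter sequence, Irgm1 alone had an ISRE core and Gabarapl1 alone a GAS core. Atg5 and Atg7 had the palindrome CACGTG, which 7.15% of promoters hold, at 14 and 132 bases before the start. A match of letters is a description and says nothing of binding in these cells.

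Lrrk2, a kinase that mouse studies tie to lysozyme sorting in Paneth cells (ENSMUSG00000036273, chr15:91673175-91816120, plus strand), had 0 counts in A, B and C. A count of 0 allows up to 0.166, 0.130 and 0.105 CPM in the 3 libraries, or 0.0429 CPM over all of them, for counting error alone (limit of 3 counts). None of the 11799 stretches of 31 bases in its annotated transcripts occurs in another gene, so sharing with a copy was not found. The transcript was not detectable at this depth, although lysozyme itself (Lyz1) stood at 3219, 3627 and 2636 CPM. Its paralog Lrrk1 had 397, 907 and 729 counts, or 21.9, 39.3 and 25.4 CPM, which was at least 132-fold higher than the limit for Lrrk2 in each library.

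Other genes of the same route were present to unequal degrees. Nod2, the bacterial sensor that acts upstream of LRRK2 in mouse Paneth cells, had 23, 11 and 3 counts (1.27, 0.476 and 0.105 CPM), and its adaptor Ripk2 had 6.79, 2.99 and 5.23 CPM. The Rab GTPases were abundant: Rab2a, which has been placed with LRRK2 on lysozyme granules in mice, stood at 262, 126 and 322 CPM and the LRRK2 substrate Rab8a at 177, 140 and 294 CPM, both lowest in B and highest in C. Of the 7 genes of this list that were tested, 0 were called.

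Over all 68 tested genes of the autophagy machinery outside the 9, 0 were called higher and 2 lower in C. Among all 13604 genes tested, 892 (6.56%) were called. Of the 68, 34 log2 fold changes lay on each side of 0, with a median of 0.01. Calcoco1, Atg9a, Wipi2, Ambra1 and Atg2b, all lower in C, fell just short (adjusted p from 0.101 to 0.106, edgeR's quasi-likelihood test). The count of 2 thus depends on the threshold, and it was made with the main settings only. Both called genes belong to nutrient control. Tsc2, a brake on the growth kinase mTOR, stood at 56.2, 66.0 and 13.1 CPM (log2 fold change -2.22 ± 0.35; edgeR's quasi-likelihood test, adjusted p = 0.0275). Prkaa2, a catalytic subunit of the energy sensor AMPK, stood at 40.7, 27.5 and 10.0 CPM (-1.77 ± 0.44, adjusted p = 0.0799 by the same edgeR test), and its counterpart Prkaa1 was at 35.4, 16.8 and 28.0 CPM. The unfolded protein response, to which autophagy is linked in Paneth cells, had 0 of 7 genes called, with Hspa5 at 1163, 1250 and 1826 CPM and Xbp1 at 490, 465 and 527 CPM.

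**Figure D4:**
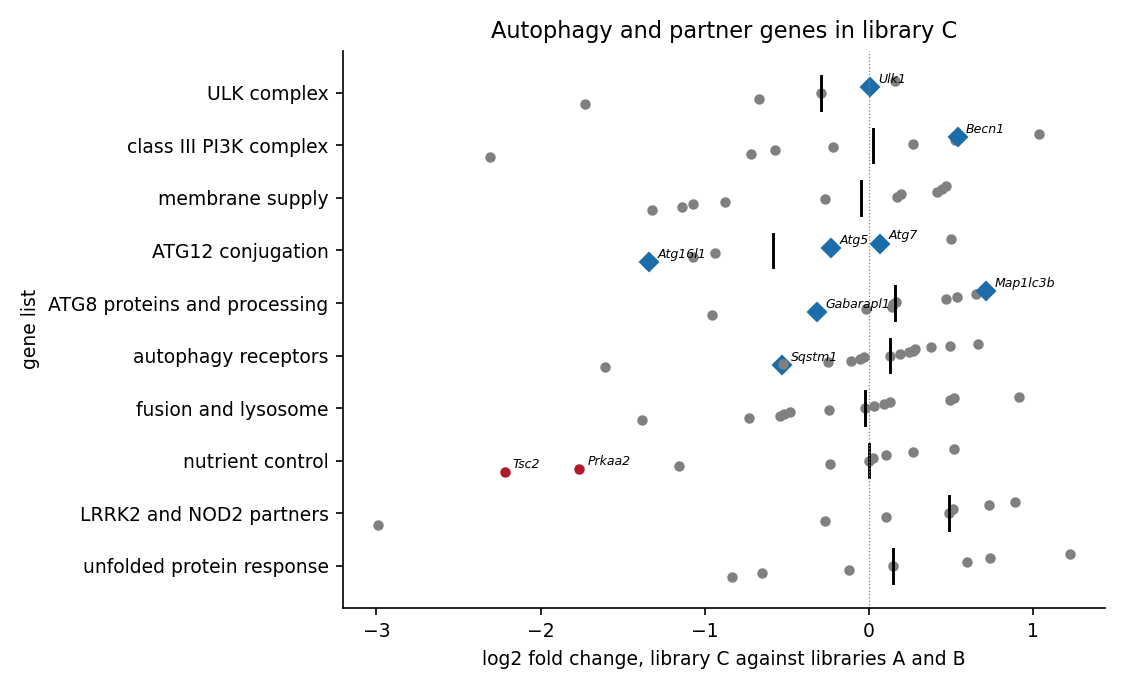
Log2 fold change in library C against A and B for the tested genes of 10 lists; diamonds are the autophagy genes described here, red points the genes called (edgeR's quasi-likelihood test, adjusted p under 0.1), black bars the list medians. The lists scatter on both sides of 0 and only Tsc2 and Prkaa2 are called; the GTPase and interferon lists, which hold genes at or near 0, are not drawn.

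Some of these levels rest on reads that other transcripts could also give, and SMART-Seq2, the full-length cDNA method used, does not mark strand. By stretches of 31 bases in the annotation, 40.0% of the transcript sequence of Becn1 is shared, nearly all of it with the antisense gene Cntd1 (14, 19 and 10 counts), as is 25.2% of Gabarapl1 with the antisense transcript 1700101I11Rik and 16.3% of Sqstm1 with the antisense gene Mrnip (92, 207 and 257 counts). Map1lc3b shares 8.64%, in part with Gm6055, Gm12727, Gm6054 and Gm5612, which had 0 counts, and with D1Ertd622e (1.41%), which had 1333, 1319 and 1933 counts, and the gene Gm20388, which spans it on the same strand, had 0, 70 and 88 counts. The share was under 3% for Ulk1, Atg5, Atg7, Atg16l1 and Irgm1. Reads from a stretch shared with an antisense partner cannot be told apart by strand, whereas reads from the rest of a gene can be assigned. The counts given to Cntd1 and Mrnip were small beside those of Becn1 (3727, 3779 and 7696) and Sqstm1 (5999, 8746 and 7054). No count is available for 1700101I11Rik. How the estimated counts divided the shared reads was not tested.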

How the data were processed

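RNA was converted to cDNA libraries with SMART-Seq2 and sequenced on an Illumina HiSeq. The authors trimmed reads with Trimmomatic 0.39, quantified transcripts with Salmon 0.14.1 (versions from the submitters' processing notes) against GRCm38 and used tximport to sum transcripts by gene. Each deposited value is an estimated count of an Ensembl gene and is a whole number.

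Symbols, gene coordinates, lengths and shared 31-base stretches come from GENCODE M21, another release of the same build than the authors used. Promoters follow RefSeq starts. CPM were computed in edgeR 4.0.16 (R 4.3.3) with TMM normalization. Genes kept by filterByExpr (minimum count 10) were compared between C and the other libraries with the quasi-likelihood test of edgeR, with Benjamini-Hochberg adjustment over all 13604 genes at 0.1, the study's threshold; this leaves 1 residual degree of freedom, takes C to vary like A and B, and sets libraries rather than conditions against each other. Standard errors were obtained as absolute log2 fold change over root F. The procedure was first tested on simulated counts in which C varied like A and B. The changes placed in them were larger than those of the autophagy genes. That test therefore gives no measure of power for changes of the size seen here. Intervals are exact at 95%; a gene at 0 is given a limit of 3 counts. Both cover counting error only, because the reads carry no molecular identifiers and several may stem from 1 molecule.

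Alternatives were DESeq2 size factors, plain totals, other filters, DESeq2 1.42.0 (Wald test), loess removal of length or GC trends (span 0.5), a threshold of 0.05, other gene lengths and leaving out each library. The genes, pathway lists and markers were chosen with earlier results of these data known. Named beside the 10 genes are their paralogs, the 2 most abundant other genes per kilobase of each list, and every pathway gene called; 1 gene so named is not reported here. Other genes in the text fall outside this rule and were chosen after their values were seen. Among them are Nod2, Ripk2, Gbp2, Gbp3, Ifit3, Oas1a, Ambra1, Atg9a, Wipi2, Atg2b, Calcoco1, Vamp8, the rest of the GTPases, the markers and the genes that share sequence. Of the unfolded protein response list, Ddit3 had more than 1 Ensembl identifier and was not used. Python 3.11.15 (pandas 2.3.3, numpy 2.4.6, matplotlib 3.10.9, scipy 1.17.1) was used for tables and plots.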

Additional observations from a re-analysis of the deposited data

How the results depend on the processing

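Against 185 genes called higher and 707 lower in C, the higher count was 295 with plain totals, 825 with no filter on low counts, 344 with at least 10 counts in every library, 92 after removal of the length trend, 41 after removal of the GC trend, 395 with DESeq2's Wald test and 15 at an adjusted p under 0.05. The lower count was 1577 with no filter, 340 with the GC trend removed, 1223 with the Wald test and 261 at 0.05. Of the 9 autophagy genes tested, 1 (Atg16l1) was called in place of 0 with plain totals, no filter, at least 10 counts in every library, and the Wald test. Why the counts differ was not tested. The median log2 fold change of the 9 genes, 0.01, ranged from -0.25 without replicate 1 to 0.066 without replicate 2. Ulk1 turned to -0.011 with plain totals, -0.019 with at least 10 counts in every library and -0.44 without library A, against 0.62 without library B, and Irgm1 to -0.057 without the length trend and -0.027 without the GC trend. The directions of the other 7 genes held in every alternative run. All 50 alternative means of CPM stayed within 1 SD of the reported ones. For the means with a library left out, and for Lrrk2 at 0, this outcome was fixed by arithmetic and says nothing about robustness. No paired analysis was possible because the libraries form 1 group. Lrrk2, Nod2 and the GTPases other than Irgm1 and Irgq had few or no counts, so their levels are uncertain. A contrast of 1 library against 2 gives no replicate of C.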
